A study of Caenorhabditis briggsae with 10 samples.

Results

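The comparison described here is the difference between the cold responses of 2 wild strains of the nematode Caenorhabditis briggsae. For each gene, the change from control to cold in AF16 was subtracted from the same change in HK104. All 8 parental libraries of the 10 in the series entered the comparison, with 2 libraries in each of 4 groups: AF16 control, AF16 cold, HK104 control and HK104 cold. AF16 is the tropical and HK104 the temperate representative, and both carry the genotype label WT. In every group, synchronised L4 larvae, mid to late in that stage, were kept for 24 hours at 20 °C. Control worms were then collected at once, and cold worms after a further 60 hours at 4 °C. A control of the same elapsed time is not among the groups, so cold and elapsed time cannot be told apart. Each origin is represented by 1 strain, so a difference between the strains cannot be assigned to tropical or temperate origin. The remaining 2 libraries come from the AF16/HK104 hybrid and are used only for a side reading at the end.

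A genotype that shifts a gene by the same factor in both conditions leaves no trace in this comparison. What remains are genes whose response to the environment depends on the genotype, a class known as genotype-by-environment interaction in gene expression. Such an interaction can arise in several ways: one strain can respond more strongly in the same direction (amplitude), the strains can respond in opposite directions (sign change), or strains that already differ can become alike. Cold in ectotherms is known to slow transcription, translation and growth and to call for changes in membrane lipids and protein folding, and C. briggsae strains of tropical and temperate origin are known to differ in temperature tolerance.

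Total counts per library lay between 15360979 and 18362210 over 23175 genes, and 13503 genes passed the filter on low counts and were tested. Levels are given as CPM, counts scaled to the library's size after correction for its composition. They are compared between groups for 1 gene at a time. Between genes they serve only to sort genes into sets by amount of reads, since they are not per length. The genes carry WormBase identifiers, the tables used here do not pair these with names or positions, and no gene function or tissue marker could therefore be read. In both strains cold library 1 has a description that ends in an unexplained suffix, and the second AF16 cold library names another lane than the other libraries that name one. In whole worms, fewer cells of a type and less RNA per cell cannot be told apart. Labels do not say whether the 2 libraries of a group came from separate cultures, so the p-values measure the spread between these libraries only.

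The cold response differed between the strains at 67 of 13503 genes (0.496% of the genes tested) at an FDR below 0.05 in the quasi-likelihood test of edgeR. At 59 of them (0.437% of the genes tested) HK104 had the higher response, and at 8 (0.0592%) the lower one. The 59 genes had a median difference of 3.02 on the log2 scale between the responses, against 0.04 over all tested genes, a median that was the same with 4 genes set to the floor because a group of theirs held at most 3 counts. Their median response was -1.65 in AF16, and -1.63 with those genes at the floor, and 1.41 in HK104. The 8 genes had a median response of 0.58 in AF16, or 0.52 with 3 such genes at the floor, and -2.42 in HK104. Ordered by mean CPM and split into 3 sets of 4501 genes, the middle set held 48 of the 67, the lowest 10 and the highest 9.

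**Figure D1:**
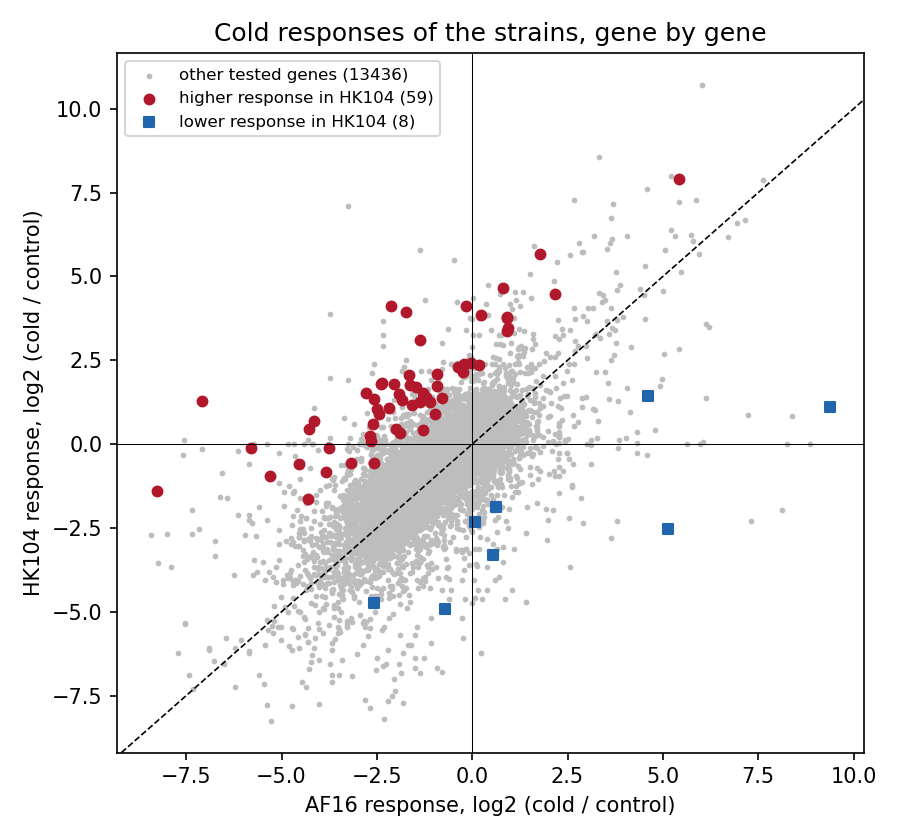
Log2 response to cold (cold over control) in AF16 on the x axis and in HK104 on the y axis, 1 point per tested gene; the dashed line marks equal responses. The 59 genes with a higher response in HK104 (circles) lie above the line and mostly left of zero in AF16, and the 8 with a lower response (squares) lie below it.

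The count depended on the libraries and on the scaling. The composition factor itself differed most at the first AF16 cold library, at 1.14 against 0.947 to 1.04 in the others. The count was 13 without the first and 6 without the second AF16 control library, 1 without the second AF16 cold library, 11 without the first and 1 without the second HK104 control library, 59 without the first AF16 and 93 without the second HK104 cold library, and 0 without the first HK104 cold library, where 808 genes had an unadjusted p below 0.05 by edgeR. Leaving out both cold libraries that carry a suffix in their description gave 65 genes, of which 38 were among the 67. With total counts in place of composition scaling 0 of 13503 genes passed in edgeR, with 787 at an unadjusted p below 0.05. Without the first HK104 cold library 14307 genes were tested. A share of 0.05 of the genes tested is expected below that p without any difference, and these counts are to be read beside it. In a separate analysis, DESeq2 with its own size factors gave 168 genes. In each of these analyses all 67 genes kept their direction, and in each all 67 had an unadjusted p below 0.05. They were chosen on the same libraries, so this describes how stable the estimates are and is no separate test.

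The gene with the smallest FDR, WBGene00025909, had the largest difference among the 20 genes with a called AF16 fall and a called HK104 rise. Its levels were 6.53 and 5.22 CPM in AF16 controls, 2.28 and 1.27 CPM in AF16 after cold, 9.30 and 6.71 CPM in HK104 controls, and 152 and 95.8 CPM in HK104 after cold. The HK104 cold libraries stood above all others without overlap, while the AF16 cold libraries stood below both AF16 controls. The difference between the responses was 5.68 ± 0.49 (log2, SE, n = 2 libraries per group), with a 95% interval of 4.58 to 6.78 and an FDR of 0.00555.

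WBGene00089170, the second gene by FDR, moved in the same directions. It was measured at 39.1 and 34.8 CPM in AF16 controls and at 16.17 and 13.9 CPM after cold. In HK104 it was at 29.0 and 28.2 CPM in controls and at 82.8 and 81.5 CPM after cold. The levels of the strains were within 1.29-fold of each other in control (FDR = 0.391) and 5.47-fold apart after cold (FDR = 9.47e-05). The difference between the responses was 2.82 ± 0.28 (log2, SE, FDR = 0.00963).

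The question whether the divergence is present at baseline or arises in the cold was read from the strain differences within each condition. These differences use the same libraries as the interaction, which equals the cold difference minus the control difference, so these counts describe how the 67 genes came to differ and test nothing further. The strain difference was called after cold and not in control at 59 of the 67 genes, against 7.53% of all tested genes. Of all tested genes, 12.7% had a called strain difference after cold and 7.01% in control. At 3 of the 67 genes it was called in control and not after cold, against 1.89% of all tested genes. It was called in both at 5, against 5.12%, and in neither at 0, against 85.5%. Fitting the control and the cold libraries separately gave 51 genes with a call after cold and not in control.

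Among the 59 genes with a higher response in HK104, 57 were called higher in HK104 after cold with no call in control. Over all tested genes 7.08% were called higher and 5.58% lower in HK104 after cold. Over the 59 genes with a higher response the median control difference was -0.27 on the log2 scale, with quartiles of -0.63 and 0.16, and the median after cold was 2.99, or 2.95 with the floor in place. Over all 13503 genes the median absolute strain difference was 0.28 in control and 0.38 after cold. The absolute strain difference was larger after cold at 61 of the 67 genes, against 59.5% of all tested genes, and at 58 of the 59. A missing call in control does not show that the strains were equal there.

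**Figure D2:**
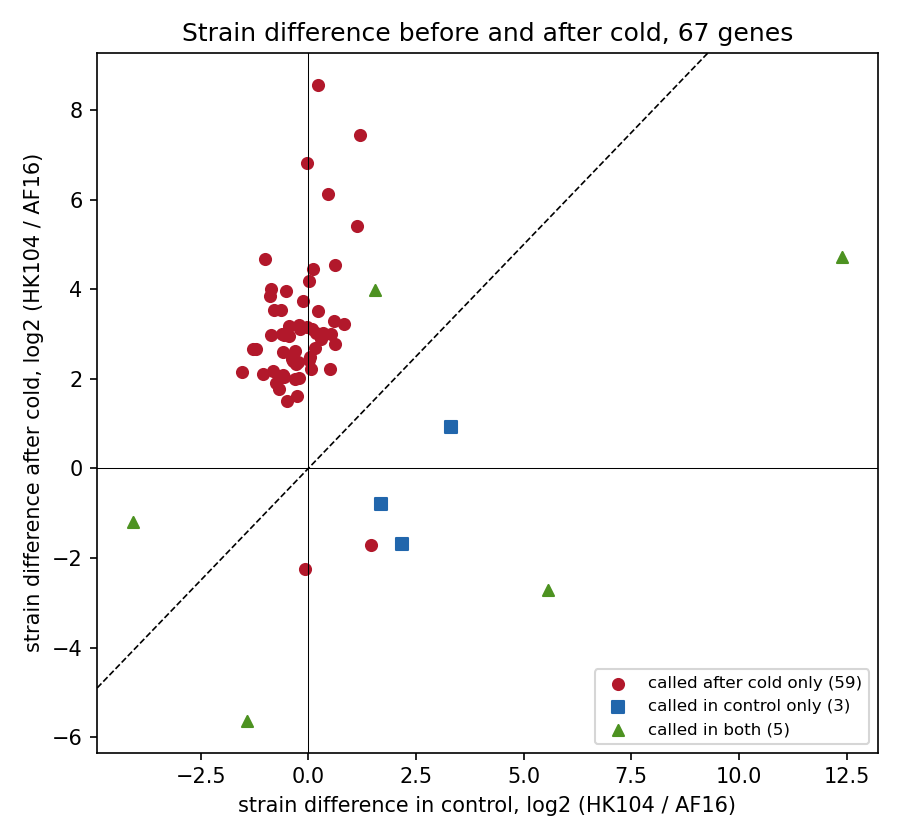
Log2 strain difference (HK104 over AF16) in control on the x axis and after cold on the y axis for the 67 genes with different responses, marked by the condition in which the difference was called; the dashed line marks equal differences. Of the 59 genes called after cold only, 57 stand above zero after cold, and 2 stand below it. The point farthest right and the one at 5.58 on the x axis had 0 counts in AF16 control, so their places on that axis depend on the prior count. The highest point had 0 counts in AF16 cold, so its place on the y axis depends on it too.

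Per library, the libraries of the strains did not overlap after cold at all 67 genes, against 43.8% of all tested genes, and in control at 53 of them, against 60.9%. The genes were chosen on these libraries. The median absolute difference between the replicates of the 67 genes was 0.40 on the log2 scale in AF16 cold, against 0.51 over all genes, and 0.17 against 0.20 in AF16 control. In HK104 it was 0.38 against 0.37 in cold and 0.22 against 0.15 in control, where the 67 genes had the wider spread.

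After cold, either strain could be the one that departed. Each gene was assigned to the group whose mean log2 level lay farthest from the mean of the other 3, a description chosen after the values were seen. AF16 after cold stood below the rest at 31 of the 59 genes, against 17.2% of all tested genes. HK104 after cold stood above the rest at 27 of the 59, against 18.6% of all tested genes. The 59 genes were chosen for a higher HK104 response, which favours both patterns. These shares, and the medians of the sets below, thus follow in part from the choice. The remaining gene, WBGene00039608, had HK104 control as the group standing below, as did 9.01% of all tested genes. In the set of 31, the median response was -2.58 in AF16, or -2.56 with 3 genes at the floor, and 0.60 in HK104. In the set of 27, it was -0.38 in AF16 and 2.40 in HK104. The share of the difference that came from the HK104 response had a median of 47.6% over the 59 genes, with quartiles of 16.9% and 77.8%. It was below 0% at 9 genes, where the HK104 estimate was below zero, from 0% to 25% at 8, from 75% to 100% at 5, and above 100% at 10, where the AF16 estimate was above zero.

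**Figure D3:**
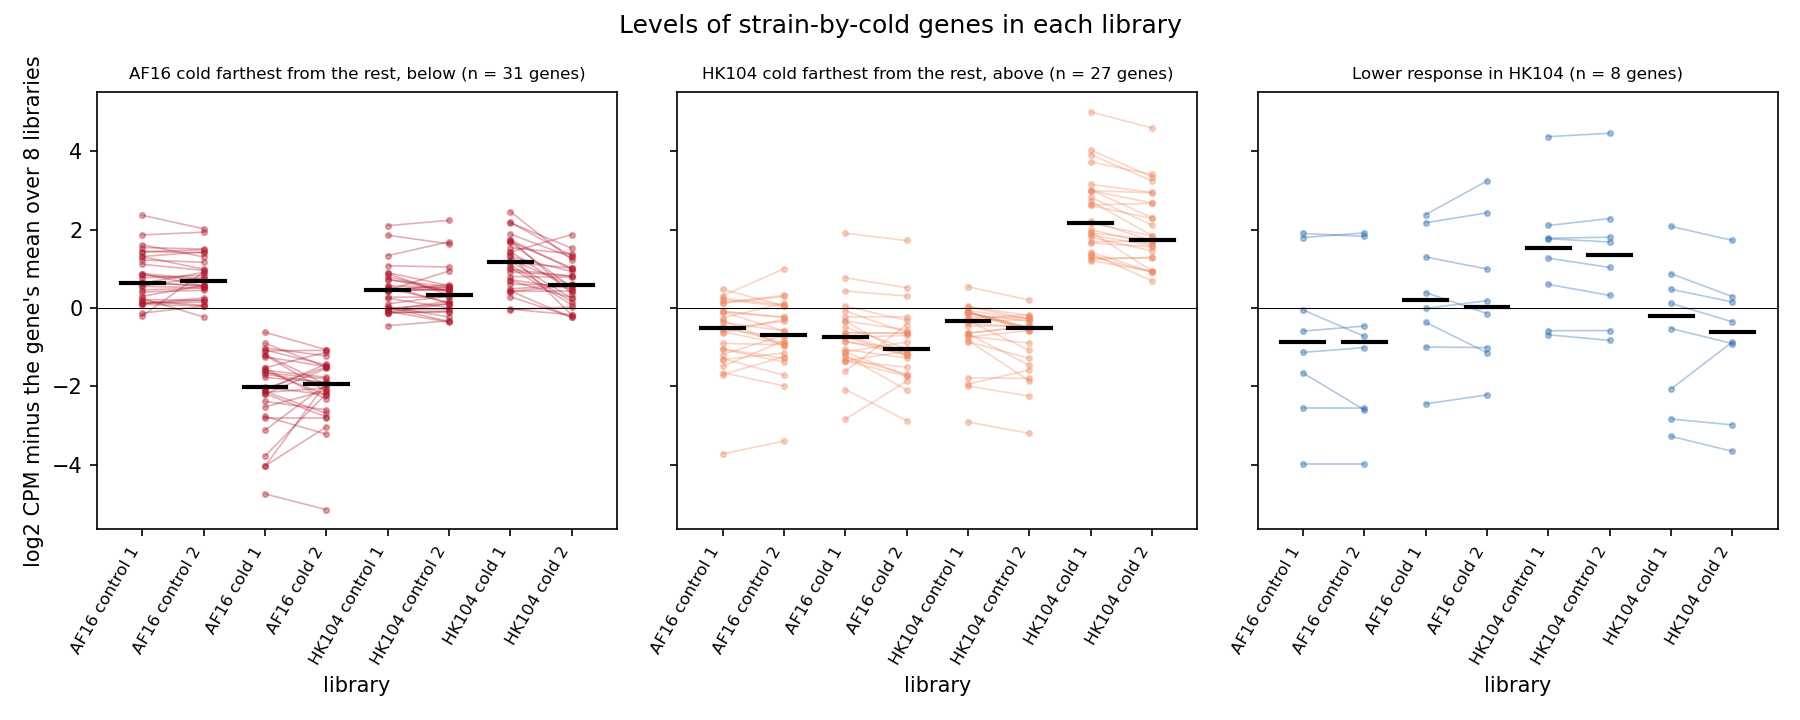
Log2 CPM of each gene minus its mean over the 8 libraries, by library, with 1 dot per gene, thin lines joining the 2 libraries of a group and black bars at the median over genes. In the first panel both AF16 cold libraries drop to medians near -2 (-2.02 and -1.95), in the second both HK104 cold libraries rise to 2.17 and 1.74, and in the third the 8 genes with a lower HK104 response show several patterns. Genes were assigned to the first and second panels by these same levels, so the drop and the rise follow in part from the choice.

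The set in which AF16 dropped includes WBGene00032138, which had the smallest FDR for a fall in AF16 among the 67. It was at 12.8 and 12.5 CPM in AF16 controls and at 0.171 and 0.460 CPM, from 3 and 8 counts, after cold. In HK104 it went from 11.9 and 15.2 CPM to 7.09 and 6.99 CPM. Both strains fell, by 5.29 (FDR = 4.81e-05) and by 0.94 (FDR = 0.0473) on the log2 scale, and the difference was 4.35 ± 0.51 (SE, FDR = 0.0157). At WBGene00088960 the AF16 cold libraries held 2 and 1 counts, against 521 and 421 in controls, a ratio of 334 with a counting interval of 114 to 1620 (95%). Its HK104 cold libraries were themselves far apart, at 15.8 and 5.41 CPM, below 26.7 and 29.4 CPM in HK104 controls.

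The set in which HK104 rose includes the gene with the largest HK104 rise among the 67, WBGene00042194. It was at 2.03 and 2.58 CPM in AF16 controls and at 106 and 93.5 CPM after cold. In HK104 it went from 3.66 and 2.98 CPM to 909 and 684 CPM. The strains thus shared a large rise, 43.1-fold in AF16 and 239-fold in HK104, and the HK104 rise was 5.55 times the AF16 rise (log2 difference 2.47 ± 0.36, SE, FDR = 0.0228). WBGene00041674 also rose in both strains, from 5.11 and 3.78 to 21.7 and 18.2 CPM in AF16 and from 3.61 and 3.56 to 79.0 and 81.2 CPM in HK104. Its difference was 2.32 ± 0.34 (log2, SE, FDR = 0.0228), and all 4 cold libraries stood above all 4 controls.

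WBGene00030574 was higher in HK104 in both conditions. It was at 3.14 and 2.46 CPM in AF16 controls and 9.42 and 7.06 CPM in HK104 controls, a 2.94-fold difference (FDR = 0.00782). After cold it was at 6.15 and 4.49 CPM in AF16 and at 90.8 and 78.6 CPM in HK104, a 15.9-fold difference (FDR = 4.17e-05). The strain difference seen in control was therefore wider after cold, with a difference of responses of 2.44 ± 0.38 (log2, SE, FDR = 0.0253). With DESeq2 size factors in the same edgeR test it fell short of the threshold (FDR = 0.0514).

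Sign changes were counted first by the calls in each strain. The response was called as a rise in 2.78% and a fall in 20.1% of all tested genes in AF16 (22.9% in all), and as a rise in 4.54% and a fall in 16.6% in HK104 (21.1%). Opposite calls in the strains occurred at 24 genes (0.178% of the genes tested), and 21 of these were among the 67. In 20 of the 21 the gene fell in AF16 and rose in HK104, with median responses of -1.64 and 1.46 on the log2 scale. Their medians per library ran from 0.16 and 0.20 (AF16 control) to -1.22 and -1.50 (AF16 cold), and from -0.09 and -0.21 (HK104 control) to 1.43 and 1.12 (HK104 cold), relative to each gene's mean over the 8 libraries. The median AF16 cold levels lay below, and the median HK104 cold levels above, those of all 4 control libraries. The 20 genes were chosen by their calls on these same libraries, so this order follows from the choice and is no separate result.

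The single gene in the other direction, WBGene00030657, rests on very few AF16 counts. It had 0 and 0 counts in AF16 controls and 4 and 5 counts after cold, at least 1.41-fold higher against a floor of 3 counts per library. In HK104 it fell from 39.0 and 41.4 CPM to 7.89 and 6.13 CPM (log2 change -2.52 ± 0.26, SE, FDR = 0.000221). The HK104 controls were at least 221-fold above the AF16 controls. The other 3 genes with opposite calls, WBGene00027151, WBGene00028174 and WBGene00032144, were named because they are the only ones outside the 67. All 3 fell in AF16 and rose in HK104, and the difference of responses did not pass the test, at 2.08 to 2.87 on the log2 scale with FDR from 0.0641 to 0.0758.

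By estimate alone, without regard to calls, the responses had opposite signs at 44 of the 67 genes, against 18% of all tested genes. Among the other 23, the response was larger in HK104 at 12 and larger in AF16 at 11, against 41% and 41% of all tested genes. Among the 59 genes these numbers were 40, 10 and 9. The genes were chosen for a large difference of responses, which favours opposite signs, so the shares of all tested genes are no like-for-like background. By call, 7 of the 10 with the larger HK104 response rose in both strains, with a median response of 0.94 in AF16 and 3.79 in HK104. Of the 9 with the larger AF16 response, 3 were called as falls in both, with medians of -5.29 and -1.40. A pure difference of amplitude between called responses of the same direction thus accounted for 12 of the 67 genes, namely 8 that rose and 4 that fell in both strains. The other 34 genes had a call in 1 strain: 17 fell in AF16 with no call in HK104, 12 rose in HK104 with no call in AF16, 4 fell in HK104 with no call in AF16, and 1 rose in AF16 with no call in HK104. At the 17 genes the HK104 response had a median of 0.34, and at the 12 genes the AF16 response had a median of -0.23.

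The 8 genes with a lower response in HK104 did not share 1 pattern. HK104 control stood above the other groups at 4 of them, against 8.23% of all tested genes. AF16 after cold stood above at 2, against 8.93%, and HK104 after cold below at 2, against 14.4%. These shares too follow in part from the choice of the genes. In control, 5 of the 8 were called as HK104 higher, against 3.01% of all tested genes, and 1 as HK104 lower, against 4%. Among these 5 is a gene with 0 and 0 counts in AF16 controls and 6 and 6 in HK104 controls. Against a floor of 3 counts per library it was at least 1.92-fold higher in HK104. The absolute strain difference was smaller after cold at 5 of the 8, against 1 of the 59.

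WBGene00038120 showed a baseline difference that shrank. It was at 2.53 and 2.76 CPM in AF16 controls and at 2.79 and 2.76 CPM after cold. In HK104 it fell from 24.8 and 28.1 CPM to 6.17 and 4.42 CPM. The strain difference was 9.98-fold in control (FDR = 0.000108) and 1.91-fold after cold (FDR = 0.0558), while the AF16 change did not pass the test (FDR = 0.897). The difference of responses was -2.39 ± 0.39 (log2, SE, FDR = 0.0328). WBGene00039608 shrank in the mirror direction: HK104 controls were at 0.581 and 0.408 CPM against 8.63 and 8.34 CPM in AF16 controls. After cold the levels were 7.58 and 6.33 CPM in HK104 and 19.4 and 12.7 CPM in AF16, so a 16.9-fold difference (FDR = 0.000164) became a 2.30-fold one (FDR = 0.0237).

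Among genes with a deeper fall in HK104, WBGene00024634 had a control difference of -0.07 on the log2 scale (FDR = 0.95). It was at 101 and 95.6 CPM in AF16 controls and 92.5 and 94.2 CPM in HK104 controls. After cold it was at 20.8 and 12.1 CPM in AF16 and at 3.67 and 3.30 CPM in HK104, falls of 5.95-fold and 26.7-fold (difference -2.17 ± 0.37, log2, SE, FDR = 0.0371). WBGene00036853 was already lower in HK104 controls, at 3.43 and 2.80 CPM against 8.01 and 8.70 CPM in AF16 (FDR = 0.0186). After cold it was at 5.64 and 4.54 CPM in AF16 and held 2 and 1 counts in the HK104 libraries, against 59 and 48 counts in HK104 controls. The ratio of HK104 control to cold was 32.7 with a counting interval of 10.9 to 161 (95%). At WBGene00038448 the AF16 response was the larger: AF16 rose from 0.801 and 0.360 CPM to 13.0 and 15.5 CPM, and HK104 from 1.69 and 1.52 CPM to 5.20 and 3.43 CPM. Both rises were called, and they differed by -3.18 ± 0.57 (log2, SE, FDR = 0.0448).

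Amplitude was also read over the whole transcriptome. The orthogonal slope of the HK104 on the AF16 response, which does not depend on library scaling, was 1.07 over all tested genes and 1.06 over the 7033 genes whose mean level reached 10 CPM. The standard deviation of the responses over genes was 1.30 in AF16 and 1.37 in HK104. These are descriptions across genes, which are not replicates. The slope ranged from 0.839 without the first AF16 cold library to 1.37 without the first HK104 cold library. Each removal of an AF16 library lowered it, and each removal of an HK104 library raised it. The direction thus followed the strain left with 1 library in a group, and the range does not measure the uncertainty of 1.07. No test was made, so neither strain is shown to have the larger response over the whole transcriptome. At 10 CPM or more the standard deviation of the response was 0.832 and 0.991 in the 2 AF16 cold libraries and 0.904 and 0.978 in the HK104 cold libraries, and the ranges overlapped.

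The genes called in both strains in the same direction were read separately. At the 216 rising genes the HK104 response was the larger at 63.0%, with a median excess of 0.10 on the log2 scale (quartiles -0.04 and 0.73). At the 1775 falling genes the HK104 fall was the larger at 52.5%, with a median excess of 0.03 (quartiles -0.41 and 0.51). With genes at the floor in 1 group set to 3 counts, the median difference of responses was 0.11 for the rising genes and 0.00 for the falling genes. Library scaling moves rises and falls in opposite ways, and with DESeq2 size factors the shares were 51.2% and 60.9%, so each share is tied to the scaling. The mean of the median excesses, in which scaling cancels, was 0.06. It ran from -0.21 to 0.16 without single AF16 libraries and from 0.27 to 0.51 without single HK104 libraries. The genes called in both strains change with the libraries, so these values do not measure the uncertainty of 0.06. The median difference between the responses over all genes shifted from 0.04 to -0.10 with DESeq2 size factors. Of the 216 and 1775 genes, 8 and 4 passed the test of a difference.

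The libraries limit which differences can be seen. The standard error of the difference between responses had a median of 0.45 on the log2 scale over all genes, of 0.84 in the lowest of the 3 sets by level and of 0.33 in the highest. The smallest difference that was called was 1.71. For 4317 genes (32.0%) the 95% interval of the difference lay within 1 log2 unit on either side of zero, which bounds the difference to less than 2-fold. This share was 0.422% in the lowest set, 23.3% in the middle and 72.2% in the highest. For the other uncalled genes the interval reached past 2-fold, so such a difference cannot be bounded at this depth and replication.

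The hybrid libraries, which entered no part of the choice of the 67 genes, gave a reading with both alleles in 1 worm. There was 1 library per condition, in which 5328922 reads before and 6003360 reads after cold could be given to either allele over the tested genes, and no test was possible. The minimum of 20 such reads in both libraries was reached by 40 of the 67 genes. The minimum itself draws on the hybrid values and passes over genes with few reads in either library. The parental values took part in choosing the 67 genes and the hybrid values did not, so a smaller difference in the hybrid is no result in itself. At 33 of these 40 (82.5%) both alleles changed in the same direction, against 79.5% of 8099 tested genes. Over these 8099 genes, both alleles rose at 3898 and both fell at 2544. At the 12 of the 20 genes that fell in AF16 and rose in HK104 and had enough reads, both alleles rose at 9 and both fell at 2. The medians there were 0.36 for the AF16 allele and 0.86 for the HK104 allele, beside parental responses of -1.47 and 1.40.

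The sets of genes are given side by side, and a difference between them was not tested. Among the 15 readable genes at which HK104 after cold stood above the rest, both alleles rose at 13. The AF16 allele had a median response of 1.19, where the AF16 parent had -0.38, and the HK104 allele 1.53, where the HK104 parent had 2.29. Among the 18 readable genes at which AF16 after cold stood below the rest, both alleles fell at 9 and both rose at 6. The medians were -0.48 and -0.16 beside parental medians of -2.50 and 0.65. The minimum also applied to the cold library, so these values leave out genes that fell to few reads. Both alleles fell at WBGene00032138 (33 to 0 AF16 reads, 38 to 14 HK104 reads) and WBGene00088960 (118 to 10, 138 to 5). They also both fell at WBGene00303154, WBGene00037205 and WBGene00030581, likewise passed over for cold reads. Both alleles rose at WBGene00034831 and WBGene00034195, passed over for control reads. The split thus holds for readable genes only. At WBGene00042194 the reads rose from 33 to 2716 for the AF16 allele and from 29 to 3017 for the HK104 allele. At WBGene00041674 they rose from 14 to 157 and from 12 to 187. WBGene00024634 fell from 644 to 125 reads for the AF16 allele and from 849 to 55 for the HK104 allele. At WBGene00038120 the AF16 allele went from 14 to 19 reads and the HK104 allele from 112 to 37. At WBGene00030657 the AF16 allele went from 1 to 4 and the HK104 allele from 184 to 40. Both alleles rose at WBGene00030574, with log2 responses of 2.49 and 3.70, and at WBGene00039608, from 33 to 71 and from 1 to 29 reads. In these 7 genes each allele had, by estimate, its parent's direction. That was not so at the other 2 named genes with enough reads. At WBGene00036853 the HK104 allele went from 73 to 121 reads (log2 response 0.55), where the HK104 parent fell, and the AF16 allele from 65 to 64. At WBGene00089170 the AF16 allele went from 76 to 98 (0.19), where the AF16 parent fell, and the HK104 allele from 89 to 102 (0.02). In a hybrid both alleles share the same cells, but with 1 library per condition the spread is unknown.

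**Figure D4:**
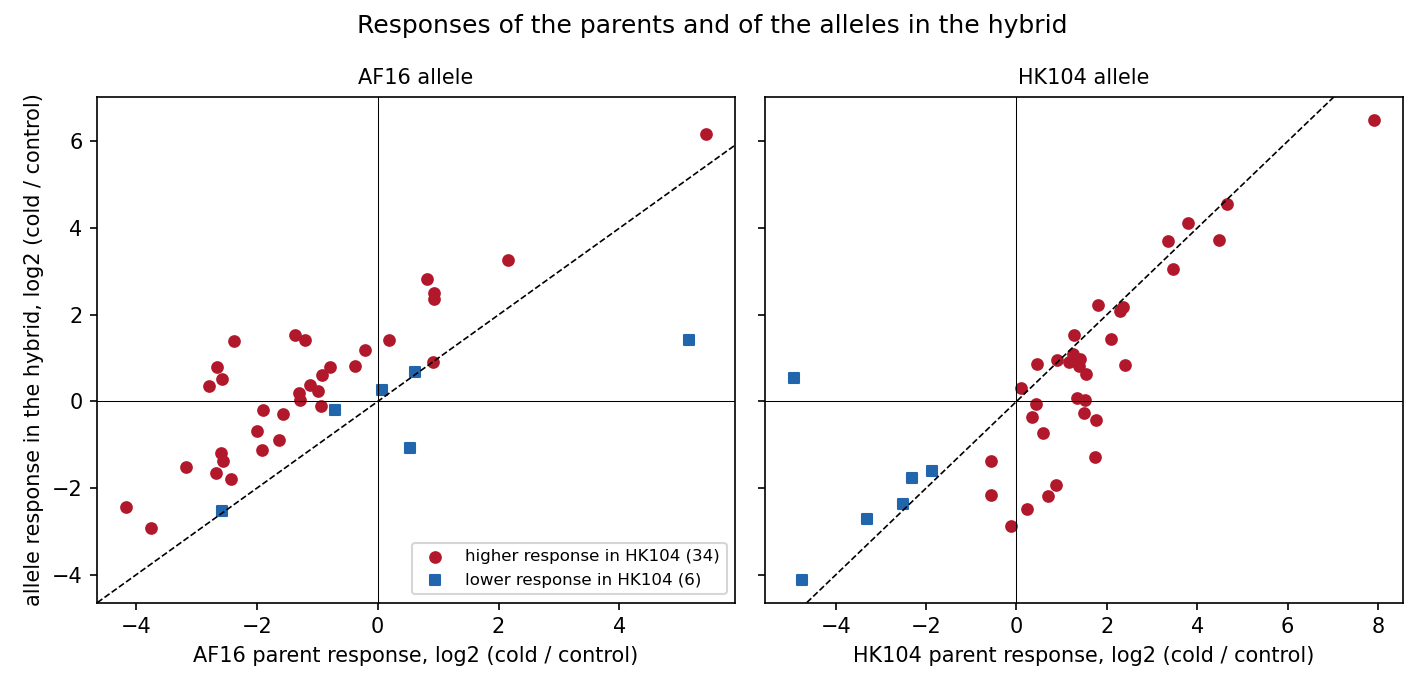
Response of each allele in the hybrid (y axis, log2 of cold over control reads, 1 library per condition) against the response of its parental strain (x axis, log2) for the 40 genes with enough reads; the dashed line marks equality. Of the 34 genes with a higher response in HK104, 34 have the AF16 allele above the line and 27 the HK104 allele below it. The genes were chosen on the parental values and not on the hybrid values, so these counts are no result in themselves.

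Set beside these fits, the authors' deposited table of the same comparison holds log2 differences for 13503 genes that equal those found here to within 4.08e-08. After Benjamini-Hochberg adjustment of its p-values, 66 genes in the authors' deposited table passed 0.05, and all 66 were among the 67. The bars for each alternative analysis show how the count of 67 moved while the majority direction was retained wherever more than 1 gene passed.

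**Figure D5:**
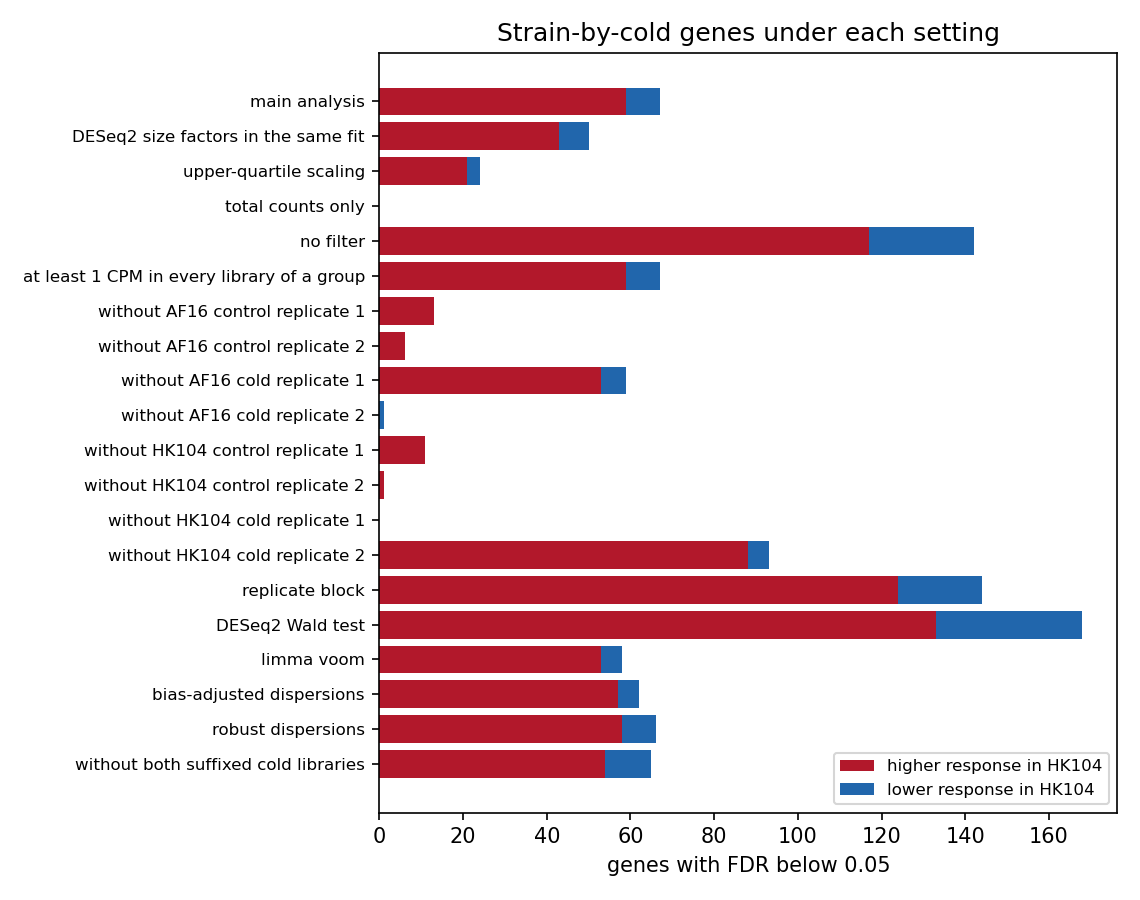
Number of genes with a different cold response at an FDR below 0.05 (x axis) in the main analysis and under each alternative (y axis), split by direction. The count ranges from 0 to 168, and genes with a higher response in HK104 make up the larger part of every bar of more than 1 gene.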

How the data were processed

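Whole-worm RNA was sequenced after library preparation with a KAPA kit (Roche), per the labels' protocols. Cutadapt, HISAT2 2.2.0, HTSeq 0.11.1 and edgeR are named in the submitters' processing notes without settings. The genome build, annotation and use of strand are not given in the sources used here, so reads of near-identical or overlapping genes are uncertain. Counts of the 8 parental libraries were deposited without normalization, and a second table deposited by the authors holds counts per allele of the hybrid. The authors' deposited table of the strain comparison holds log2 fold changes, log2 mean CPM, an F score and unadjusted p-values, per the file headers.

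Samples were grouped by their titles. The counts were fitted with edgeR 4.0.16 (R 4.3.3; glmQLFit and glmQLFTest with default settings, 1 coefficient per group) after filterByExpr with a minimum count of 10, which kept 99.9% or more of each library's counts, and TMM scaling. All 5 contrasts came from this fit, and p-values were adjusted by Benjamini-Hochberg over 13503 genes. Standard errors were taken as the log2 value over the square root of F. Allele responses in the hybrid used 0.5 added reads and assigned totals. Alternatives used DESeq2 1.42.0, limma 3.58.1, other scalings and filters, a replicate term, and fewer libraries. Genes were named by rule: the 2 smallest FDR per direction in the comparison and, among its calls, in each of the other 4 contrasts, passing over any gene at or under 3 counts throughout a strain (0 of the 67). The comparison, gene sets and lists were chosen with earlier results of these data known. Planned gene lists and marker lists need symbols and were not run.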

Additional observations from a re-analysis of the deposited data

Results flagged for a closer look

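The interaction test found unlike cold responses in HK104 and AF16 at 67 genes, among them the 13 named by rule. The log2 difference (HK104 response minus AF16 response) was 5.68 at WBGene00025909, 2.82 at WBGene00089170, 4.35 at WBGene00032138 and 2.88 at WBGene00039608. It was 2.47 at WBGene00042194, 2.32 at WBGene00041674, 2.44 at WBGene00030574 and 2.88 at WBGene00039608, where both strains rose. It was 6.86 at WBGene00088960, -7.67 at WBGene00030657 and -4.21 at WBGene00036853, where a group held at most 3 counts per library, so that these fitted values depend on the prior count. It was -2.17 at WBGene00024634, -2.39 at WBGene00038120 and -3.18 at WBGene00038448, and at the last of these both strains rose too. With 2 libraries per group, no group was large enough for a check of single outlying libraries.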

How the results depend on the processing

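The counts are given in the order all strain-by-cold genes, those called after cold and not in control, and those with opposite calls, which were 67, 59 and 21. They were 24, 21 and 9 with upper-quartile scaling. With total counts only they were 0, 0 and 0 (edgeR, 787 of 13503 genes at an unadjusted p below 0.05). With no filter, over 19424 genes, they were 142, 123 and 25. DESeq2 gave 168, 142 and 24. Leaving out single libraries gave 0 to 93, 0 to 84 and 0 to 30. The slope of 1.07 became 1.01 with no filter and ranged from 0.839, without an AF16 library, to 1.37, without an HK104 library. The cause was not tested, except that no filter tests more genes and leaving out a library leaves 1 library in a group, assumed to vary like the others. DESeq2 size factors, the 1 CPM filter, limma voom (58), bias-adjusted (62) and robust dispersions (66) stayed within 1.5 times. So did the analysis without both suffixed cold libraries, an alternative chosen after seeing the data. With replicate number as a block the counts were 144, 122 and 32. The numbers are not stated to mark a shared batch: the differences between replicates correlated across genes at 0.34 between the cold groups, 0.15 between the control groups, 0.23 and 0.14 between the conditions of AF16 and of HK104, and 0.02 and 0.00 between a control and a cold group of different strains. So 4 of 6 pairs of groups exceeded 0.1, and whether the numbers mark pairs is not settled. None of the 13 named genes changed direction in any of these analyses. WBGene00025909 fell short of the threshold in 3 of 19, WBGene00038448 in 13.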
